A study of Homo sapiens with 12 samples.

Results

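The FOS, JUN and BATF genes were followed in A375 melanoma cells exposed to vemurafenib, tretinoin or both drugs. The 9 members were taken by gene symbol: FOS, FOSB, FOSL1, FOSL2, JUN, JUNB, JUND, BATF3 and BATF, out of 58347 genes in the count files. Of these, 8 had enough reads to be tested, among 16740 genes in all. BATF did not pass the count filter and is described by its counts alone.

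These genes encode subunits of AP-1 (activator protein 1), a family of transcription factors that pair through a leucine zipper and grip DNA with an adjacent basic region. FOS proteins bind DNA only with a partner, usually a JUN protein, whereas JUN proteins can also pair with one another. BATF and BATF3 are small relatives that lack the activation domains of FOS and are best known from lymphocytes and dendritic cells. In BRAF-mutant melanoma the RAF-MEK-ERK cascade is continuously active, and ERK both induces FOS-family genes and stabilizes their proteins.

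A375 is an established human melanoma line with mutant BRAF, the kinase that vemurafenib inhibits. Tretinoin is all-trans retinoic acid, the ligand of the retinoic acid receptors. Cells of this single line were treated in triplicate for 8 h with vehicle (DMSO), tretinoin, vemurafenib, or vemurafenib + tretinoin (the combination), and 5 µM is the dose listed for every group, the vehicle included. Polyadenylated RNA was sequenced, which gave 12 samples in 4 groups of 3. The labels do not say whether the 3 samples of a group came from separate cultures on separate days, so p-values measure the spread between these dishes.

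Total counts per sample lay between 13510235 and 21534377. Of 10 melanoma and melanocyte markers, 6 passed the count filter. VIM and MITF were detected in every sample, with raw counts of 12478 to 20997 and 245 to 658, whereas SOX10 was listed at 0 in all 12 samples and TYR did not exceed 1 count. Whether the 0 for SOX10 comes from the cells or from the counting was not tested. The pigment cell genes PMEL (8 to 25 counts), MLANA (1 to 19) and TYRP1 (5 to 45) were low but detected in every sample. MITF (log2 fold change 0.88, SE 0.10, adjusted p = 1.3e-06) and TYRP1 (2.32, SE 0.32, adjusted p = 1.1e-05) were called higher with vemurafenib than in DMSO. Both were also called higher in the combination than in DMSO. Of 14 genes of ERK pathway output, such as DUSP6 and SPRY4, all 14 fell with vemurafenib, where 26.3% of all genes did. Their median log2 fold change was −3.29, against 0.02 over all genes tested. Of 9 tested retinoid response genes, 5 rose with tretinoin, where 3.48% of all genes did. Among them edgeR called 0 lower (1 lower at an unadjusted p below 0.05, 0 by DESeq2), where 2.2% of all genes were. In RNA from whole dishes, fewer expressing cells and less RNA per cell cannot be told apart.

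The members lie on 5 chromosomes (GRCh38). FOSL1 is at chr11:65892049-65900573 on the minus strand, FOSL2 at chr2:28392448-28417312 on the plus strand, and FOSB at chr19:45467995-45475179 on the plus strand. JUNB (chr19:12791496-12793315, plus strand) and JUND (chr19:18279760-18281622, minus strand) are on the same chromosome as FOSB. FOS (chr14:75278774-75282230) and BATF (chr14:75522425-75547015) lie near each other on the plus strand of chromosome 14. JUN (chr1:58780788-58784327) and BATF3 (chr1:212686418-212699985) are on the minus strand of chromosome 1. Of the 1820 exon bases of JUNB, 259 (14.2%) also belong to exons of HOOK2 on the opposite strand. Counting ignored strand and assigned a read over both genes to neither, so the JUNB values rest on the rest of its exons. No other member shares exon bases with another gene.

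The sequences just upstream of FOS, FOSB and JUND are shown because FOS and FOSB fell with vemurafenib and JUND was not called in that comparison. They are from RefSeq (GRCh38.p14), which matched 7 of the 9 members, and are cut where the annotated gene begins. The stretches are chr14:75278578-75278773 (plus strand) for FOS, chr19:45467746-45467994 (plus strand) for FOSB and chr19:18281623-18281872 (minus strand) for JUND. Capitals mark the cAMP response element TGACGTCA or its half-site TGACGT on either strand.
FOS: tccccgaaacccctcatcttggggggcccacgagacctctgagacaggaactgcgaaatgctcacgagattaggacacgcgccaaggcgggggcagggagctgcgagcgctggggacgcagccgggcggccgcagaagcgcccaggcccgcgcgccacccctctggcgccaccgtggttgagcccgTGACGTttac
FOSB: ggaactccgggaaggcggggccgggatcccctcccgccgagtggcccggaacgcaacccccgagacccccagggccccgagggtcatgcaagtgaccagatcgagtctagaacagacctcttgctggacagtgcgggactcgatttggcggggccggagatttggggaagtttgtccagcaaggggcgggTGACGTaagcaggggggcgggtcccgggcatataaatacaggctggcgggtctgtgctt
JUND: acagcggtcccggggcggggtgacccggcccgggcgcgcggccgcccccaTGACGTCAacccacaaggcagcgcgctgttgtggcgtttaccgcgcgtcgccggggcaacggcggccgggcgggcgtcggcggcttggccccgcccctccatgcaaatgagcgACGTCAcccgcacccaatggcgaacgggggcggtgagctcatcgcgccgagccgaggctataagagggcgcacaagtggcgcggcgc
Distances are counted back from the RefSeq start of each gene, which for FOS lies inside the annotated gene, so the 196 bases shown for FOS end before it. The full element TGACGTCA was found in JUND alone among the 7 members, from 200 to 193 bases before that start, and in 1.65% of the 35116 RefSeq promoters over the same 250 bases. The half-site, which the full element contains on both strands and which was chosen after the sequences were read, began 64 bases before the RefSeq start in FOS, 60 in FOSB and 66 in FOSL2. For FOSL2 the whole searched window lies inside the annotated gene, so its half-site is not upstream of that gene. A second copy in JUND lay 87 to 82 bases before its start. The half-site occurs in 7.1% of all promoters, and it was not found in the 250-base windows of JUNB or BATF. JUNB also fell with vemurafenib, and its upstream stretch is not shown. Neither the AP-1 site TGANTCA (6.57% of promoters) nor the CArG box of serum response elements (1.16%) was found in the 250 bases before the RefSeq start of any of the 7 members. This describes these windows only. The members without a matched sequence are among FOSL1, JUN and BATF3, and they were not searched.

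Levels were compared between genes per length, as FPKM (fragments per kilobase of exon, scaled to library size). In DMSO, FOSL1 was the most abundant member at 250 ± 25.5 FPKM (SD, n = 3). JUND followed at 73.2 ± 3.56, JUNB at 43.0 ± 3.73 and JUN at 24.1 ± 4.01 FPKM. The other members were lower than JUN, with FOSL2 at 6.07 ± 0.654, BATF3 at 2.77 ± 0.445, FOSB at 2.29 ± 0.268, FOS at 0.892 ± 0.162 and BATF at 0.0449 ± 0.0389 FPKM. In this order only BATF3 and FOSB overlapped with their neighbour. The classical immediate early gene FOS was among the least abundant members 8 h after vehicle addition.

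With vemurafenib the order changed at the top. JUND led at 80.0 ± 6.35 FPKM, followed by FOSL1 at 26.01 ± 2.17 and JUNB at 23.7 ± 0.51, and JUN was below both at 18.7 ± 1.89. Over the 1561 exon bases that JUNB does not share with HOOK2, its level was 27.6 ± 0.594 FPKM, which overlapped with FOSL1, so FOSL1 and JUNB are not ordered here. In the combination JUND was at 71.0 ± 2.58 FPKM, FOSL1 at 30.04 ± 1.44, JUNB at 27.7 ± 2.23 and JUN at 27.5 ± 0.388. There FOSL1 (28.5 to 31.4 FPKM) lay above JUN (27.1 to 27.9 FPKM), and JUNB over all its exon bases overlapped with both. Over its unshared bases JUNB was at 32.3 ± 2.6 FPKM, above JUN and overlapping with FOSL1, so FOSL1 and JUNB are not ordered here either. In DMSO and with tretinoin that length left the order unchanged. Tretinoin alone kept the DMSO order of the first 5 members, and FOSB (4.02 ± 0.0135) stood above BATF3 (2.42 ± 0.486).

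Summed over FOS, FOSB, FOSL1 and FOSL2, the FOS-group level was 260 ± 25.6 FPKM in DMSO, 269 ± 19.6 with tretinoin, 33.5 ± 2.4 with vemurafenib and 37.6 ± 2.16 in the combination. FOSL1 made up 96.4% ± 0.414 of that sum in DMSO and 96.1% ± 0.0921 with tretinoin, but 77.6% ± 0.958 with vemurafenib and 80.0% ± 0.853 in the combination. FOSL2, at 2.35% ± 0.263 in DMSO, accounted for 19.7% ± 0.703 with vemurafenib and 17.1% ± 0.803 in the combination, at 6.59 ± 0.23 and 6.43 ± 0.622 FPKM. Without FOSL1 the sum was 9.25 ± 0.792 FPKM in DMSO, 10.6 ± 0.999 with tretinoin, 7.51 ± 0.271 with vemurafenib and 7.51 ± 0.731 in the combination.

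The JUN-group sum was 140 ± 10.1 FPKM in DMSO, 107 ± 10.9 with tretinoin, 122 ± 8.08 with vemurafenib and 126 ± 4.87 in the combination. JUND, which often restrains proliferation, held 52.2% ± 2.01 of it in DMSO and 49.6% ± 1.8 with tretinoin. Its share was 65.4% ± 1.01 with vemurafenib and 56.2% ± 0.128 in the combination. JUND itself was not called between vemurafenib and DMSO (adjusted p = 0.16 by edgeR's quasi-likelihood test). The FOS-group level per JUN-group level was 1.86 ± 0.207 in DMSO, 2.54 ± 0.461 with tretinoin, 0.274 ± 0.00222 with vemurafenib and 0.298 ± 0.0282 in the combination. With JUNB over its unshared bases the JUN-group sums were 147.5, 112.7, 126.2 and 130.9 FPKM, and the JUND share was 49.7% in DMSO and 63.3% with vemurafenib. These sums and ratios are descriptions of mRNA and were not tested.

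**Figure D1:**
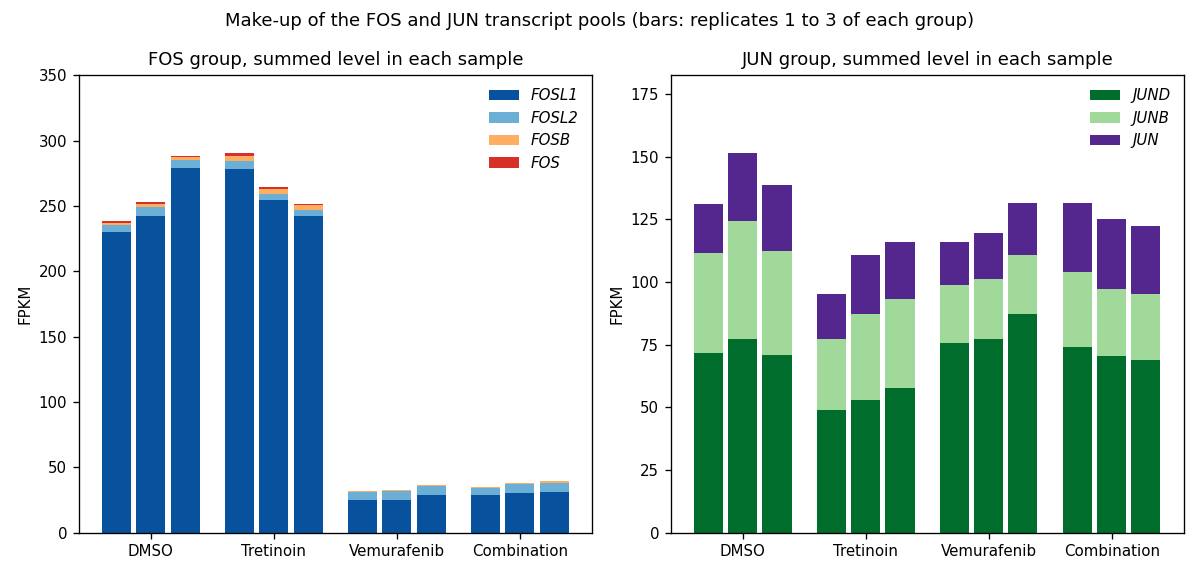
Stacked bars give the level of each FOS-group member (left) and JUN-group member (right) in FPKM for every sample, with replicates 1 to 3 of each treatment side by side. The FOS-group bars of the vemurafenib and combination samples (31.8 to 39.5 FPKM) are a fraction of those of DMSO and tretinoin (238.3 to 290.1 FPKM), and almost all of the difference is FOSL1.

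Relative to DMSO, vemurafenib lowered 6 of the 8 tested members (FOSL1, FOS, FOSB, BATF3, JUNB and JUN). Of all genes tested, 26.3% were called lower in this comparison. No member was called higher, by edgeR (also 0 at an unadjusted p below 0.05), or by DESeq2, whereas 26.4% of all genes were. The median log2 fold change over the 8 members was −0.98, against 0.02 over all genes tested. FOSL2 and JUND were the 2 members not called.

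FOSL1, which encodes FRA-1, an ERK-induced FOS protein tied to invasion and mesenchymal traits, fell most. Its normalized counts were 7834, 8267 and 9510 in DMSO and 838, 850 and 972 with vemurafenib. All vemurafenib samples were far below all DMSO samples, with no overlap. The log2 fold change was −3.27 (SE 0.09, adjusted p = 1.5e-14 by edgeR's quasi-likelihood test), a 9.64-fold fall, and it ranged from −3.34 to −3.07 over 20 alternative settings.

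FOS and FOSB, the immediate early members that serum and growth factors induce, fell 3.85-fold and 3.29-fold. FOS was counted at 62.9, 48.8 and 44.8 in DMSO and at 9.39, 15.7 and 15.2 with vemurafenib. These groups did not overlap, at a low level: the 3 vemurafenib samples held 42 FOS reads in all. The FOS log2 fold change was −1.95 (SE 0.28, adjusted p = 1.9e-05). For FOSB the normalized counts were 209, 260 and 221 in DMSO and 65.7, 77.4 and 65.2 with vemurafenib. Again all 3 treated samples lay below all controls, and the FOSB change was −1.72 (SE 0.13, adjusted p = 8.7e-09) on the log2 scale.

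FOSL2, which encodes FRA-2, did not follow FOSL1. Its normalized counts were 695, 863 and 797 in DMSO and 828, 842 and 885 with vemurafenib. The 2 ranges overlapped, and the log2 fold change was 0.12 (SE 0.10, 95% interval −0.09 to 0.33, adjusted p = 0.34).

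Within the JUN group the 3 genes differed from each other. JUNB, which antagonizes JUN at some promoters, was at 1321, 1554 and 1372 in DMSO and at 767, 797 and 770 with vemurafenib. The groups were well apart, and JUNB fell by 0.86 on the log2 scale (SE 0.09, adjusted p = 3.2e-07). JUN, the founding AP-1 subunit and a substrate of the JNK kinases, was at 1248, 1711 and 1672 in DMSO and 1085, 1171 and 1324 with vemurafenib. DMSO replicate 1 lay within the vemurafenib range, and the JUN fold change of −0.37 (SE 0.12, adjusted p = 0.012) was not called without DMSO replicate 2 (−0.30, adjusted p = 0.071), DMSO replicate 3 (−0.32, adjusted p = 0.06) or vemurafenib replicate 1 (−0.31, adjusted p = 0.065). JUND was at 2408, 2600 and 2380 in DMSO and 2544, 2594 and 2937 with vemurafenib, with overlapping groups. Its log2 fold change was 0.13 (SE 0.08, 95% interval −0.03 to 0.29, adjusted p = 0.16).

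Scaling to total counts alone shifted the median log2 fold change of all genes from 0.02 to 0.21 in this comparison. Under that scaling FOSL2 (0.31, adjusted p = 0.016) and JUND (0.32, adjusted p = 0.00082) were called higher and JUN (−0.18, adjusted p = 0.17) was no longer called lower. FOSL1, FOSB, JUNB and BATF3 were called lower under all 20 alternatives, and FOS under the 19 that tested it.

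BATF3 was at 115, 159 and 134 normalized counts in DMSO and at 65.7, 73.9 and 49.95 with vemurafenib. No vemurafenib sample reached the lowest DMSO sample, and the log2 fold change was −1.09 (SE 0.18, adjusted p = 7e-05). BATF, by contrast, was barely detected. In all it gave 2 reads in the DMSO samples, 7 with tretinoin, 4 with vemurafenib and 11 in the combination. It was at 0 in DMSO replicate 3 and tretinoin replicate 1, where 3 counts, the limit that a count of 0 allows, correspond to 0.147 and 0.222 CPM (counts scaled to library size, counting error only). BATF was left out of the fit, so its counts carry no test.

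**Figure D2:**
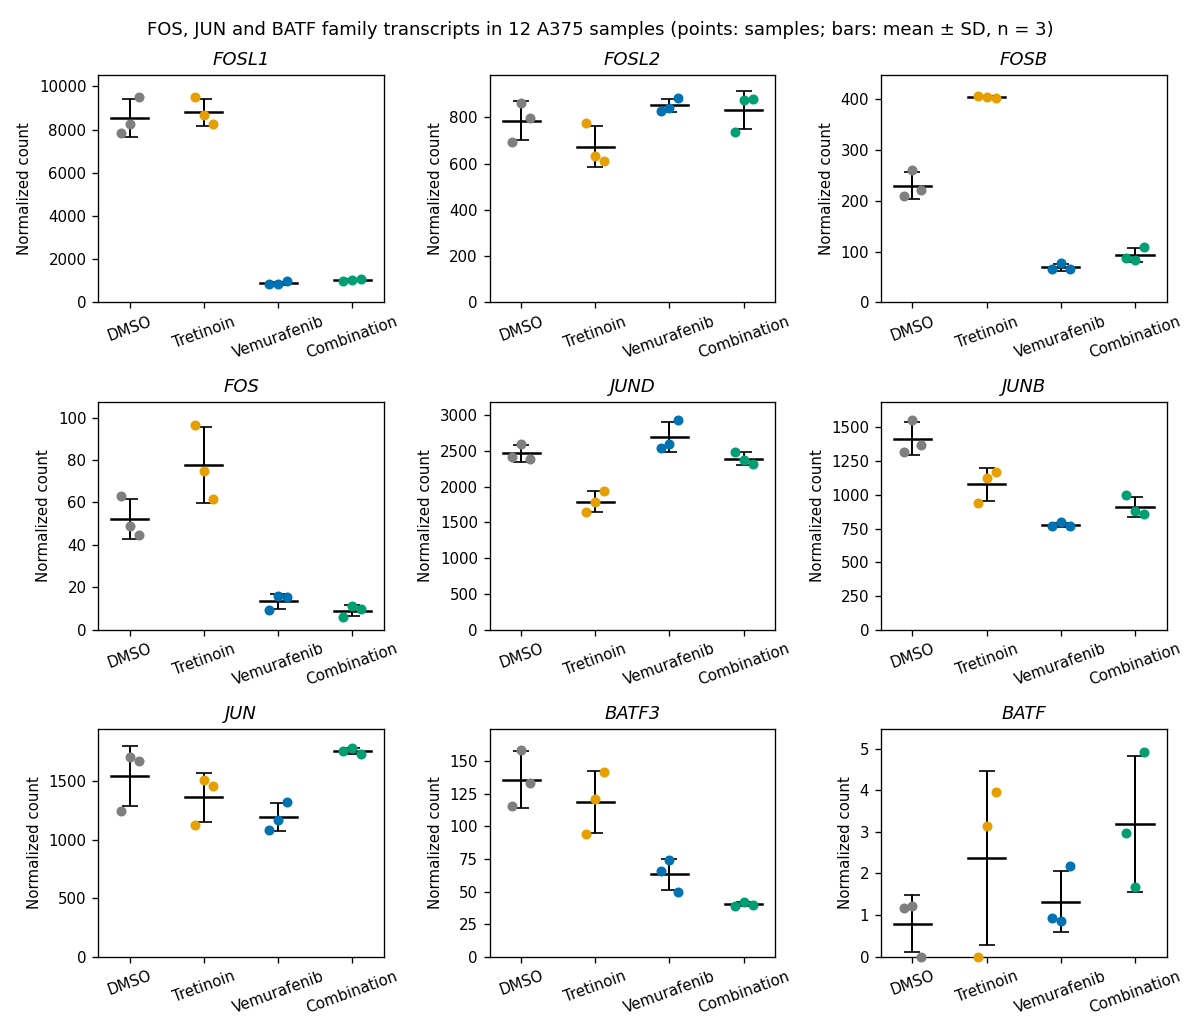
Each panel plots the normalized counts of a member (linear axis from 0) by treatment, with a point per sample and bars for mean ± SD (n = 3). FOSL1, FOS, FOSB and BATF3 sit low in both groups that received vemurafenib, FOSL2 and JUND do not, and BATF stays below 5 normalized counts in every sample.

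With tretinoin alone, 1 of 8 tested members was called higher (FOSB), where 3.48% of all genes were, and 2 were called lower (JUNB and JUND), where 2.2% of all genes were. FOSB was at 405, 403 and 403 normalized counts with tretinoin, against 209 to 260 in DMSO. The tretinoin samples lay within 3 counts of each other and above every control. The log2 fold change was 0.82 (SE 0.11, adjusted p = 0.0002), and it was called under all 20 alternatives.

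FOS was at 96.7, 74.6 and 61.4 with tretinoin, against 44.8 to 62.9 in DMSO. Tretinoin replicate 3 lay just under the highest DMSO sample, and the log2 fold change of 0.56 (SE 0.23, 95% interval 0.09 to 1.04) did not pass the threshold (adjusted p = 0.15). FOSL1 was at 9494, 8666 and 8247 with tretinoin. These samples overlapped with DMSO, and the interval of the log2 fold change was −0.13 to 0.22 (0.04, SE 0.08, adjusted p = 0.8). For FOSL2, at 775, 632 and 612, the log2 fold change was −0.23 (SE 0.10, 95% interval −0.44 to −0.01, adjusted p = 0.19), again with overlapping samples. Without tretinoin replicate 1, FOSL2 was called lower (−0.34, adjusted p = 0.032).

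JUND was at 1645, 1785 and 1936 with tretinoin, against 2380 to 2600 in DMSO. Every tretinoin sample was lower than every control, and the JUND fall of 0.46 on the log2 scale (SE 0.08, adjusted p = 0.0013) was called under all 20 alternatives. JUNB was at 938, 1123 and 1171, all below the DMSO samples at 1321 to 1554. The JUNB log2 fold change was −0.39 (SE 0.09, adjusted p = 0.014), but the call was lost without DMSO replicate 2 (−0.32, adjusted p = 0.098) and when the DMSO and tretinoin samples were fitted alone (−0.38, adjusted p = 0.1). JUN, at 1125, 1512 and 1459, and BATF3, at 94.1, 121 and 142, overlapped with DMSO. Their log2 fold changes were −0.18 (SE 0.12, 95% interval −0.42 to 0.07, adjusted p = 0.39) and −0.18 (SE 0.17, 95% interval −0.54 to 0.18, adjusted p = 0.57).

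In the combination, 5 of the 8 tested members were lower than in DMSO (FOSL1, FOS, FOSB, BATF3 and JUNB), where 26.5% of all genes were called lower. No member was called higher by edgeR (0 at an unadjusted p below 0.05) or DESeq2, against 27.1% of all genes. This comparison and the vemurafenib comparison share the DMSO samples. FOSL1 was at 972, 1030 and 1070 normalized counts, far below all DMSO samples, with a log2 fold change of −3.06 (SE 0.09, adjusted p = 2.2e-14).

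FOS reached its lowest counts here, at 5.97, 10.9 and 9.82, with 31 reads in the 3 samples together. All were below every DMSO sample, and the FOS log2 fold change was −2.51 (SE 0.30, adjusted p = 1.8e-06). FOSB was at 87.5, 83.1 and 110, also below all controls (log2 fold change −1.29, SE 0.13, adjusted p = 1.5e-07). BATF3 was at 38.8, 42.0 and 40.1, the lowest of the 4 groups, with a log2 fold change of −1.75 (SE 0.19, adjusted p = 6e-07).

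JUNB was at 996, 879 and 862, below the DMSO samples, and fell by 0.63 on the log2 scale (SE 0.09, adjusted p = 9.8e-06). JUN was at 1759, 1786 and 1736, so its 3 samples lay just above the highest DMSO sample (1711). The log2 fold change of 0.19 (SE 0.12, 95% interval −0.05 to 0.43) was not called (adjusted p = 0.18), although it was with total counts alone (0.36, adjusted p = 0.0083) and with only these 2 groups fitted (0.21, adjusted p = 0.042). FOSL2 (739, 875 and 881) and JUND (2486, 2370 and 2316) overlapped with DMSO, with log2 fold changes of 0.09 (SE 0.10, 95% interval −0.12 to 0.29) and −0.04 (SE 0.08, 95% interval −0.20 to 0.12).

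Adding tretinoin to vemurafenib changed 1 member beyond the threshold. JUN was called higher in the combination than with vemurafenib alone, where 2.27% of all genes were. The combination samples (1736 to 1786) lay above all vemurafenib samples (1085 to 1324), and the log2 fold change was 0.56 (SE 0.12, adjusted p = 0.0063). Without vemurafenib replicate 1 it was 0.50 and not called (adjusted p = 0.058). No member was called lower by edgeR or DESeq2, with 2 lower at an unadjusted p below 0.05, where 2.2% of all genes were called.

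The other members did not pass, though several separated by sample. BATF3 was lower in every combination sample than in every vemurafenib sample (log2 fold change −0.66, SE 0.21, adjusted p = 0.089), and it was called without tretinoin replicate 1 (adjusted p = 0.032) and with only these 2 groups fitted (adjusted p = 0.043). FOSB (0.43, SE 0.14, adjusted p = 0.12), FOSL1 (0.21, SE 0.09, adjusted p = 0.27) and JUNB (0.23, SE 0.09, adjusted p = 0.21) were higher in all 3 combination samples, and JUND (−0.17, SE 0.08, adjusted p = 0.3) lower in all 3. Of these, JUNB was called with only these 2 groups fitted (0.23, adjusted p = 0.044). FOS (−0.56, SE 0.37, 95% interval −1.34 to 0.22) and FOSL2 (−0.03, SE 0.10, 95% interval −0.24 to 0.17) overlapped.

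Relative to tretinoin alone, every tested member was called in the combination, 5 lower (FOSL1, FOS, FOSB, BATF3 and JUNB) and 3 higher (JUND, JUN and FOSL2). Of all genes tested, 25% were lower and 24.1% higher. The log2 fold changes of the falling members were −3.10 for FOSL1, −3.07 for FOS, −2.11 for FOSB, −1.57 for BATF3 and −0.24 for JUNB. The JUNB call (SE 0.09, adjusted p = 0.029) came with overlapping samples and was lost under 8 of 20 alternatives, among them without tretinoin replicate 2 (adjusted p = 0.085) or 3 (adjusted p = 0.12) and combination replicate 2 (adjusted p = 0.093) or 3 (adjusted p = 0.1).

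JUND (log2 fold change 0.42, SE 0.08, adjusted p = 0.0002) and JUN (0.36, SE 0.12, adjusted p = 0.014) were higher in every combination sample than in every tretinoin sample, and both were called under all 20 alternatives. FOSL2 (0.31, SE 0.10, adjusted p = 0.015) overlapped. Its call was lost without tretinoin replicate 2 (adjusted p = 0.069), tretinoin replicate 3 (adjusted p = 0.076), combination replicate 2 (adjusted p = 0.067) or combination replicate 3 (adjusted p = 0.072).

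**Figure D3:**
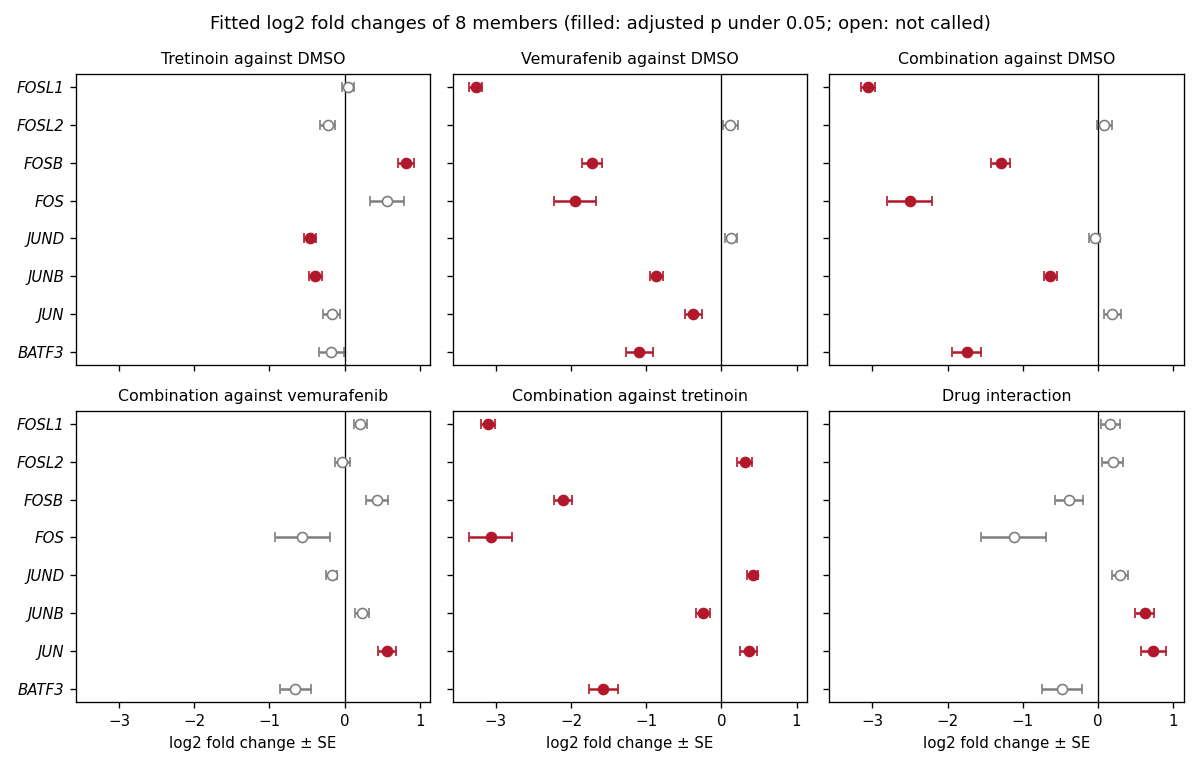
Points give the fitted log2 fold change of each tested member (horizontal axis) with its SE, in a panel per comparison, filled where the adjusted p was below 0.05. FOSL1 stands farthest left in the 3 comparisons of vemurafenib-treated with vemurafenib-free cells (−3.27, −3.06 and −3.10), and JUN is the only filled point in the comparison of the combination with vemurafenib (0.56).

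The 2-by-2 layout of the drugs allowed the change with tretinoin to be compared in the presence and absence of vemurafenib. This interaction was positive for 2 of the 8 members, JUN and JUNB, where 0.382% of all genes were called positive. It was called negative for none by edgeR or DESeq2 (2 at an unadjusted p below 0.05), where 0.424% of all genes were. Tretinoin changed JUN by −0.18 in the absence of vemurafenib and by 0.56 in its presence (log2), an interaction of 0.74 (SE 0.16, adjusted p = 0.043). For JUNB the corresponding changes were −0.39 and 0.23, an interaction of 0.62 (SE 0.13, adjusted p = 0.024).

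Both interaction calls lay near the threshold. JUN was called in 10 of 19 alternatives and JUNB in 12 of 19, with values of 0.62 to 0.86 and 0.52 to 0.68. The JUN call was lost with total counts alone (adjusted p = 0.051), with at least 10 counts in every sample (0.052), and without DMSO replicate 2 (adjusted p = 0.15) or 3 (0.11), vemurafenib replicate 1 (0.15) or 2 (0.15), or any one combination replicate (0.093 to 0.12). The JUNB call was lost with a replicate block (0.62, adjusted p = 0.058), and without DMSO replicate 2 (0.082), any one vemurafenib replicate (0.066 to 0.082), or combination replicate 1 (0.078) or 2 (0.061). For JUND the interaction was 0.29 (SE 0.11, adjusted p = 0.23), and for FOS it was −1.12 (SE 0.43, adjusted p = 0.24), the most negative value among the members. FOSB (−0.39, SE 0.18, adjusted p = 0.32), BATF3 (−0.48, SE 0.27, adjusted p = 0.39), FOSL1 (0.17, SE 0.12, adjusted p = 0.52) and FOSL2 (0.19, SE 0.14, adjusted p = 0.52) did not pass either.

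**Figure D4:**
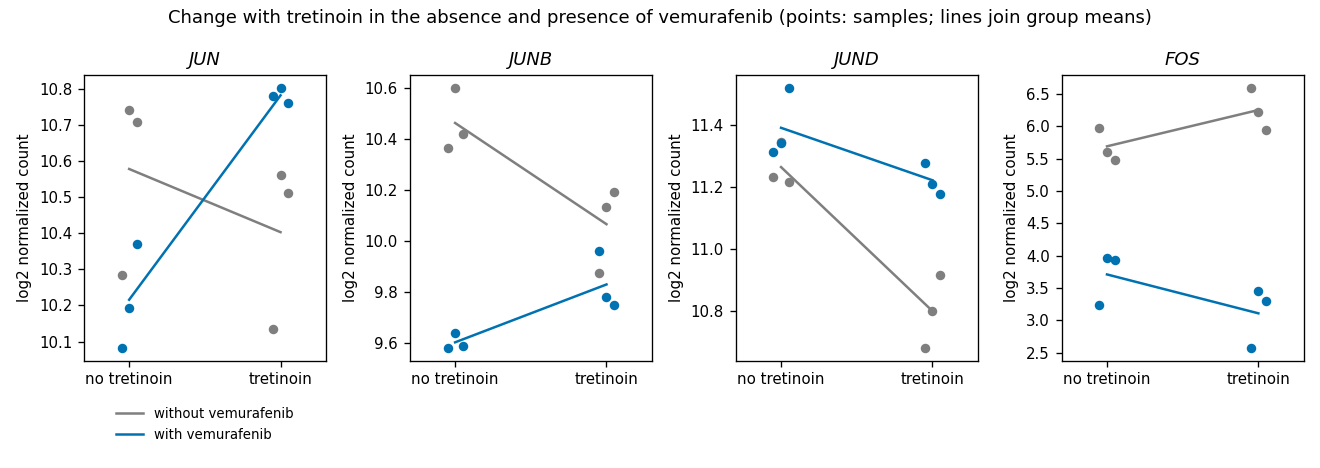
Points give log2 normalized counts of single samples without and with tretinoin, in grey without and in blue with vemurafenib, and lines join the group means. The lines cross for JUN, converge for JUNB, and slope down in both settings for JUND, while for FOS they diverge.

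The patterns of FOSL1, FOS, JUN and JUNB over the drugs were compared with those of tested genes that have a symbol and are in none of the lists. Genes of the lists described here, such as LIF and EGR1, were left out of this search. Likeness was measured as the root mean square difference of log2 levels, each relative to its own DMSO mean, over the 9 drug-treated samples. Among the genes searched, GPR3 (0.19), CIITA (0.27) and TMEM158 (0.29) were nearest to FOSL1, with log2 fold changes of −3.194, −3.195 and −3.135 with vemurafenib. The nearest member to FOSL1 was FOS, at a distance of 0.94.

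KDR (0.30), SPRED3 (0.33) and ELFN2 (0.39) were nearest to FOS. KDR, the main receptor for vascular endothelial growth factor, had log2 fold changes of 0.60 with tretinoin and −2.11 with vemurafenib. TBX2 (0.13), MID1IP1 (0.14) and TMEM186 (0.15) were nearest to JUN. TBX2 averaged 544.5 normalized counts in DMSO, 382 with vemurafenib and 636 in the combination. Nearest to JUNB were IER5 (0.08), an immediate early gene, TMEM70 (0.10) and TRIM11 (0.11). These 12 genes, all from outside the lists, were picked for their likeness, so their values describe and do not test it.

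Among 16 other bZIP genes that can pair with AP-1 proteins, all 16 were tested, and vemurafenib raised 6 and lowered 6 (median log2 fold change −0.01). The shares over all genes were 26.4% higher and 26.3% lower. The small MAF genes MAFF and MAFK, which encode partners without activation domains, fell, with log2 fold changes of −4.05 (SE 0.15, adjusted p = 6.9e-13) and −1.49 (SE 0.13, adjusted p = 5.7e-08). CREB5, a JUN partner of the ATF2 group, was also lower (−1.35, SE 0.30, adjusted p = 0.0011). JDP2, a repressor that pairs with JUN (0.91, SE 0.12, adjusted p = 5.6e-06), and MAF (0.57, SE 0.08, adjusted p = 6.6e-06) were higher.

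With tretinoin, 4 of the 16 fell, where 2.2% of all genes did. The falls included MAF (−0.56, SE 0.08, adjusted p = 0.00027), MAFF (−0.47, SE 0.12, adjusted p = 0.027) and MAFK (−0.59, SE 0.13, adjusted p = 0.011). MAFK was not called without DMSO replicate 2 or with only these 2 groups fitted (adjusted p up to 0.086). MAF had a positive interaction (0.56, SE 0.11, adjusted p = 0.017), as JUN and JUNB did.

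Kinases and transcription factors that act upstream of AP-1 genes were measured at the RNA level, which says nothing of kinase activity. Of 28 tested, vemurafenib raised 5, where 26.4% of all genes rose, and lowered 11, where 26.3% fell (median log2 fold change −0.17). MEF2C, a MADS-box factor, rose from 67.7 ± 6.17 to 312 ± 13.7 normalized counts (log2 fold change 2.21, SE 0.12, adjusted p = 6.3e-11). MAP2K6, which activates p38, rose by 0.59 (SE 0.18, adjusted p = 0.012) with overlapping samples and was not called without DMSO replicate 3 or vemurafenib replicate 1 (adjusted p up to 0.097), and MAPK3, which encodes ERK1, by 0.46 (SE 0.09, adjusted p = 0.0002). The ternary complex factor ELK3 (−1.80, SE 0.09, adjusted p = 1.8e-11), the p38 activator MAP2K3 (−1.49, SE 0.08, adjusted p = 5.4e-11) and the ERK-activated kinase RPS6KA3 (−0.75, SE 0.09, adjusted p = 1.7e-06) fell. Tretinoin raised 1 of the 28, RPS6KA3 (0.35, SE 0.09, adjusted p = 0.025), where 3.48% of all genes rose. That call was lost under 5 of 20 alternatives: a replicate block, only these 2 groups fitted, and without DMSO replicate 1 or 2 or tretinoin replicate 2 (adjusted p up to 0.10). In the combination MEF2C (−0.40, SE 0.10, adjusted p = 0.02) and RPS6KA1 (−0.32, SE 0.07, adjusted p = 0.015) were lower than with vemurafenib alone. The MEF2C call was lost under 6 of 20 alternatives, namely without the low-count filter, any one vemurafenib replicate, or combination replicate 1 or 2, and the RPS6KA1 call without vemurafenib replicate 1 or combination replicate 1 or 2 (adjusted p up to 0.11 for both).

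Genes known as AP-1 targets mostly fell with vemurafenib. Of 35 listed, 29 were tested, and 20 were lower and 3 higher, where 26.3% and 26.4% of all genes were. The median log2 fold change was −0.62, against 0.02 over all genes tested. The chemokine genes CXCL8 (688 ± 54.9 to 13.7 ± 0.563 normalized counts) and CXCL1 (893 ± 150 to 22.1 ± 2.42) fell most, with log2 fold changes of −5.64 (SE 0.14, adjusted p = 4e-15) and −5.32 (SE 0.17, adjusted p = 5.7e-14). CCND1, which encodes cyclin D1 and is also in the ERK list, fell by 4.39 (SE 0.11, adjusted p = 3e-15). Those called higher were GJA1, encoding connexin 43 (0.725 ± 0.642 to 11.2 ± 5.33 normalized counts), TGFB1 (0.64, SE 0.07, adjusted p = 1.2e-06) and the cell cycle inhibitor CDKN1A (0.53, SE 0.08, adjusted p = 1.5e-05).

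Tretinoin raised 4 and lowered 3 of the 29 targets (median log2 fold change −0.10), where 3.48% and 2.2% of all genes were called. The cytokine gene LIF rose from 1125 ± 97.9 to 1848 ± 121 normalized counts (0.71, SE 0.08, adjusted p = 3.2e-05) and the matrix gene SPP1 by 0.58 (SE 0.14, adjusted p = 0.02). CXCL1 (−0.87, SE 0.11, adjusted p = 0.00013), EZR (−0.58, SE 0.10, adjusted p = 0.0013) and CCND1 (−0.44, SE 0.09, adjusted p = 0.01) fell, CCND1 without a call when DMSO replicate 2 was left out or only these 2 groups were fitted (adjusted p up to 0.077). Against vemurafenib alone, the combination raised SPP1 (0.68, SE 0.13, adjusted p = 0.0042) and KRT18 (0.55, SE 0.11, adjusted p = 0.0055) and lowered IL11 (−0.67, SE 0.14, adjusted p = 0.0068), which was not called without combination replicate 3 (adjusted p = 0.056). KRT18, a keratin gene, had a positive interaction (0.85, SE 0.16, adjusted p = 0.012), the only one that edgeR called among the targets (DESeq2 called 2). In the comparison of the combination with DMSO, 4 targets were higher and 20 lower (median −0.66), where 27.1% and 26.5% of all genes were.

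Of 14 ERK output genes, SPRY4 (−6.55, SE 0.16), DUSP6 (−6.07, SE 0.13), ETV5 (−4.67, SE 0.14) and MYC (−3.69, SE 0.09) are set beside FOSL1 (−3.27, SE 0.09) as log2 fold changes with vemurafenib. EGR1, an immediate early gene like FOS and FOSB, rose with tretinoin (0.68, SE 0.14, adjusted p = 0.0064) and fell with vemurafenib (−2.46, SE 0.18, adjusted p = 3.7e-09). PHLDA1 rose with tretinoin (0.45, SE 0.08, adjusted p = 0.0018) and was higher in the combination than with vemurafenib (0.52, SE 0.08, adjusted p = 0.00075). These were the 2 of the 14 called higher with tretinoin, where 3.48% of all genes were. Another 3 were called lower, where 2.2% of all genes were, and the median log2 fold change was −0.07. CCND1 was among the 3 (−0.44, SE 0.09, adjusted p = 0.01).

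Retinoid response genes were measured in the same samples. DHRS3 was at 375.4 ± 57.5 normalized counts in DMSO, 2817 ± 215 with tretinoin, 1250 ± 36.2 with vemurafenib and 7271 ± 146 in the combination. STRA6 (1.34, SE 0.09, adjusted p = 5.8e-08) and CRABP2 (0.88, SE 0.21, adjusted p = 0.021) also rose with tretinoin. With vemurafenib alone the 9 tested genes were split. RARB (2.80, SE 0.23) and DHRS3 (1.74, SE 0.09) were called higher, and TGM2 (−1.52, SE 0.09), STRA6 (−0.72, SE 0.09) and CYP26B1 (−0.42, SE 0.16) lower. The CYP26B1 call held under 13 of 20 alternatives. Relative to tretinoin, 4 of the 9 were higher in the combination and 2, STRA6 and TGM2, lower, where 24.1% and 25% of all genes were. The log2 fold change of DHRS3 with tretinoin was 2.91 (SE 0.09, adjusted p = 1.9e-12), beside −0.39 for JUNB and −0.46 for JUND.

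Leukocyte, endothelial and fibroblast markers were low, whereas epithelial and keratinocyte markers were higher, and some markers moved with treatment. Endothelial markers (3 of 3 tested) summed to 0.828 to 0.967 FPKM in DMSO, 2.0 to 2.76 with tretinoin, 0.245 to 0.346 with vemurafenib and 0.702 to 0.851 in the combination. With vemurafenib CDH5 fell by 4.96 on the log2 scale (SE 0.34, adjusted p = 2e-09), whereas VWF rose by 2.13 (SE 0.49, adjusted p = 0.0013). Leukocyte markers (1 of 5 tested, PTPRC) summed to at most 0.839 FPKM in any sample, with CD68 at 0 to 2 counts. PTPRC was called higher than in DMSO with tretinoin (log2 fold change 1.46, SE 0.32, adjusted p = 0.012), vemurafenib (1.36, SE 0.32, adjusted p = 0.0016) and the combination (1.77, SE 0.30, adjusted p = 9.5e-05). The PTPRC call with tretinoin was lost without DMSO replicate 1 or 3 and with only these 2 groups fitted (adjusted p up to 0.07). Fibroblast markers (4 of 5 tested) summed to 0.729 to 1.0 FPKM in DMSO and 2.24 to 2.40 with vemurafenib, and epithelial and keratinocyte markers (3 of 5 tested) to 13.2 to 14.7 and 19.2 to 21.3. EPCAM and CDH1 did not exceed 8 counts, whereas KRT8 had 689 to 1593, KRT14 64 to 580 and KRT5 25 to 86. KRT14 was called higher with vemurafenib (log2 fold change 1.24, SE 0.21, adjusted p = 7e-05). KRT8 was called higher in the combination than with vemurafenib alone (0.46, SE 0.09, adjusted p = 0.0057). That KRT8 call was lost without vemurafenib replicate 1 or 2 (adjusted p up to 0.052). The part of these markers in the results for the AP-1 genes was not tested.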

How the data were processed

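RNA-seq of 12 A375 samples was analysed from raw counts of fragments per gene, which the authors deposited without normalization. Per the labels and the study's methods, poly(A)-selected directional libraries were sequenced, aligned with STAR 2.5.3a to GRCh38.p10, and counted on GENCODE 27 genes in union mode with strand ignored. Groups and replicate numbers came from the sample labels. The members, gene lists and alternatives were chosen with earlier results of these data known.

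In R 4.3.3, edgeR 4.0.16 (filterByExpr, TMM normalization) kept 16740 genes. Its quasi-likelihood model with a term per treatment, without a replicate block, was fitted to all 12 samples, and p-values were adjusted by Benjamini-Hochberg over all genes, comparison by comparison, and called below 0.05. The SE is the size of the log2 fold change divided by the square root of F, and 95% intervals use the t quantile of the fit's degrees of freedom. Normalized counts are TMM-adjusted counts scaled to the mean effective library, 18070152. FPKM divides them by summed exon length in GENCODE 29, which also gave positions. Likeness used a pseudocount of 1. Total counts of 13510235 to 21534377 limited precision only for genes with few reads, such as FOS and BATF. Differences between replicates exceeded sampling noise for every pair (chi-square per degree of freedom 2.62 to 23.0). The script was tested on simulated data.

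All 9 members are given in full. Of each other list, genes were named for the 3 largest rises and 3 largest falls with vemurafenib, or for the smallest p with tretinoin or between the combination and vemurafenib. One gene of the bZIP list that met this rule is not reported here. Alternatives were other scaling (relative log expression, total counts), no filter or at least 10 counts in every sample, a replicate block, DESeq2 1.42.0 with and without a beta prior, only the groups compared, each sample left out and, chosen after seeing the data, JUNB levels over exon bases not shared with HOOK2.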

Additional observations from a re-analysis of the deposited data

Results flagged for a closer look

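For 2 genes the change with tretinoin differed between cells without and with vemurafenib by a test of the interaction itself. JUN changed by −0.18 without and 0.56 with vemurafenib on the log2 scale, a difference of 0.737 (edgeR adjusted p = 0.043). JUNB changed by −0.39 and 0.23, a difference of 0.619 (edgeR adjusted p = 0.024). Over 19 alternatives JUN was called in 10 and JUNB in 12, JUNB not with a replicate block (0.62, adjusted p = 0.058) and JUN not with total counts alone (adjusted p = 0.051). Of all genes tested, 0.382% had a positive interaction. Groups of 3 were too small for a search for single outlying samples.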

How the results depend on the processing

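Calls of FOSL1, FOS, FOSB and BATF3 against DMSO with vemurafenib and the combination, of FOSB and JUND with tretinoin, and of JUNB with both vemurafenib treatments kept their direction and their side of the threshold under every alternative that tested them. With total counts alone, 2 members were called higher with vemurafenib and 2 in the combination (0 in each as reported), genes lower with vemurafenib went from 4400 to 2628, with the combination from 4440 to 2916 and with tretinoin from 368 to 174, and interactions from 64 to 36 positive and from 71 to 132 negative. The JUN-group sum in DMSO was then 130 FPKM, the FOS-group sum without FOSL1 with vemurafenib 7.96, and log2 fold changes turned sign for JUND in the combination (0.12), RPS6KA1 (0.10), SPP1 (0.13) and KRT8 (0.036) with vemurafenib, none of them called. The median over all genes moved to 0.21 with vemurafenib and 0.19 in the combination. With only the compared groups fitted, 1 member fell with tretinoin (2 as reported), 1 rose in the combination against DMSO, and 2 were higher and 1 lower in the combination than with vemurafenib (1 and 0 as reported). Genes called were then 234 higher and 71 lower with tretinoin (583 and 368 as reported) and 584 higher and 685 lower between the combination and vemurafenib (380 and 369 as reported). At least 10 counts in every sample removed FOS and ended the JUNB call between the combination and tretinoin, which left 3 members lower there (5 as reported). It also ended the JUN interaction (0.73, adjusted p = 0.052), which left 1 positive interaction, and turned JUND in the combination to 0.005. DESeq2 without and with a beta prior called 659 and 676 genes lower with tretinoin, 124 and 127 positive and 130 and 125 negative interactions. Without the low-count filter these were 804, 389 and 221. With total counts alone, 1 member had a positive interaction. JUNB over its unshared exon bases, an alternative chosen after seeing the data, gave a FOS-group level per JUN-group level of 0.266 with vemurafenib. Leaving out single samples gave 273 to 711 genes higher and 106 to 656 lower with tretinoin (fewest of both without DMSO replicate 2), 203 to 634 lower (most without tretinoin replicate 1) between the combination and vemurafenib, 31 to 121 positive (fewest without combination replicate 2) and 27 to 144 negative interactions (fewest without DMSO replicate 2), with the most of each without tretinoin replicate 1. Members called were 1 to 3 lower with tretinoin, 0 to 1 higher and 0 to 1 lower in the combination than with vemurafenib, and 0 to 2 with a positive interaction. Log2 fold changes near 0 turned sign: FOSL1 with tretinoin (−0.015 to 0.129), FOSL2 in the combination against DMSO (−0.0 to 0.159) and vemurafenib (−0.079 to 0.044), and SPP1 with vemurafenib (−0.229 to 0.02). The cause of these changes was not tested. Over all tested genes, deviations of same-numbered samples from their group means were nearly unrelated (mean correlation −0.0312, −0.143 to 0.0872 over 18 pairs). This cannot decide whether the numbers pair samples for a single gene. JUN was lowest in replicate 1 of DMSO, tretinoin and vemurafenib, but not of the combination. With the replicate block, JUNB lost its interaction call (0.62, adjusted p = 0.058), which left 1 member with a positive interaction, and 219 genes were lower with tretinoin, with 39 positive and 36 negative interactions. It changed no other member call. Depth limits FOS and BATF, with at most 31 reads in a group for either where FOS was lowest.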
